A study of Mus musculus with 6 samples.

Results

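The genes described here are 45 genes of the response to DNA double-strand breaks and of their repair, chosen by symbol from a fixed list. That list was drawn up with earlier results of these data known. All 45 have a row among the 23235 gene rows of the table. They were placed by role in 5 sets: 14 genes of break sensing and checkpoint signalling, 16 of homologous recombination, 4 of meiotic recombination, 7 of end joining and break-dependent PARP enzymes, and 4 of the Fanconi anaemia pathway. RNA came from C57BL/6 mouse oocytes at the germinal vesicle (GV) stage, fully grown and arrested in meiotic prophase. There were 3 libraries of Rtcb knock-out oocytes (Rtcb KO) and 3 of wild-type oocytes (WT). RTCB is the RNA ligase that joins the exons of cleaved tRNAs. Every library was made from polyadenylated RNA of 10 oocytes, taken 44 to 48 h after the mice received PMSG, a gonadotropin that stimulates follicle growth. The titles of both groups carry the mark 6W, which the labels do not spell out. The sources used here do not give which promoter or cell type drove the knock-out or whether each library had its own animals. A p-value therefore measures how these libraries vary, and that variation may be technical.

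A double-strand break is bound by the MRN complex and by the Ku heterodimer. MRN activates the kinase ATM, and resected, single-stranded DNA activates the kinase ATR with its partner ATRIP; both pass the signal to checkpoint kinases and to ubiquitin ligases on chromatin. Ends are then sealed by end joining or copied from an intact template by homologous recombination, and the Fanconi anaemia pathway acts at DNA crosslinks. In oocytes homologous recombination also makes the meiotic crossovers, before the growth phase, and in mice the kinase CHK2 takes part in removing oocytes whose breaks stay unrepaired.

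Values are FPKM normalized to ERCC spike-ins as deposited. They are per length, so levels of different genes can be set side by side. Fold changes are differences in log2(FPKM + 1), Rtcb KO over WT, a scale on which low genes appear less changed than they are. They were tested with limma over the 12029 genes whose mean reached 1 FPKM. Benjamini-Hochberg adjusted p under 0.05 is the threshold for calling a gene higher or lower, and 63.3% of tested genes were called in either direction. The summed FPKM per library ran from 943926 to 999507 in Rtcb KO and from 1267730 to 1347010 in WT, and read depth is unknown. The deposited values hold 1 multiplier shared by every KO library and a larger one shared by every WT library, the first being 0.667 of the second. Neither varies within a genotype, so p-values as deposited hold no error for their ratio. Whether these multipliers are the ERCC normalization itself was not tested. The median log2 fold change of all tested genes was −0.47 as deposited, against 0.043 with the factors removed, where the summed FPKM ran from 707944 to 749630 in Rtcb KO and from 633865 to 673507 in WT. Most counts and most genes below are therefore given under both scalings, and percentiles as deposited only. In bulk libraries fewer cells of a type and less RNA per cell cannot be told apart. Rtcb, listed as D10Wsu52e, was at 3.82, 2.62 and 2.49 FPKM in the Rtcb KO libraries and 136, 133 and 113 FPKM in the WT libraries. The oocyte markers Gdf9, Bmp15, Zp1, Zp2, Zp3, Oosp1, Ddx4, Nlrp5, Figla and Kit were all present. Of 19 granulosa and cumulus cell markers 13 averaged under 1 FPKM and Ptx3 was listed at 0 in every library, while Amh, Foxl2 and Fshr stayed under 1 FPKM in each. The 6 that averaged at least 1 FPKM were Cyp19a1, Inha, Kitl, Nr5a2, Hsd3b1 and Gja1. Cyp19a1, the aromatase gene, was highest of these and was at 22.2, 19.6 and 17.5 FPKM in Rtcb KO and 35.6, 39.8 and 37.2 FPKM in WT, without overlap. Nr5a2 was at 14.5, 12.3 and 13.5 FPKM in Rtcb KO and 7.57, 9.43 and 11.3 FPKM in WT, and Inha at 6.08, 8.12 and 17.8 FPKM in Rtcb KO and 7.28, 8.36 and 3.50 FPKM in WT. The summed level of the 19 markers ran from 47.4 to 63.6 FPKM in Rtcb KO and from 57.9 to 65.6 FPKM in WT, and their part in the results was not tested.

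As deposited, most of the repair genes were lower in Rtcb KO oocytes. By limma 32 of the 44 tested members were lower and 1 was higher, where 54.0% of all tested genes were lower and 9.29% higher. With the genotype factors removed 18 members were lower and 9 higher, where 18.0% of all tested genes were lower and 25.7% higher. The same 18 members were lower under all 4 scalings tried (as deposited, equal totals, median ratios and factors removed), and Chek2 was higher under all 4. Over all 45 members the median log2 fold change was −0.81, which is −0.34 relative to the median of all tested genes; with the factors removed it was −0.31, or −0.35 relative to all tested genes. All KO values lay below all WT values in 35 members and above them in 3, where the shares of all tested genes were 57.5% and 10.2%; with the factors removed these counts were 26 and 13, where the shares were 24.7% and 31.7%. In the order of fold changes as deposited over all tested genes, 22 members lay below the 25th percentile and 8 above the 75th percentile. The KO to WT ratio of means was at most 0.5 in 18 members called lower as deposited, against 20.7% of all tested genes, and in 6 with the factors removed, against 3.53%. Those 6 were Atr, Msh4, Prkdc, Parp1, Fancd2 and Fanci. The untested member was Msh5, whose mean was under 1 FPKM. Prkdc passed this filter by its WT level and Mlh3 by its KO level, so these members could pass in part because they differed.

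**Figure D1:**
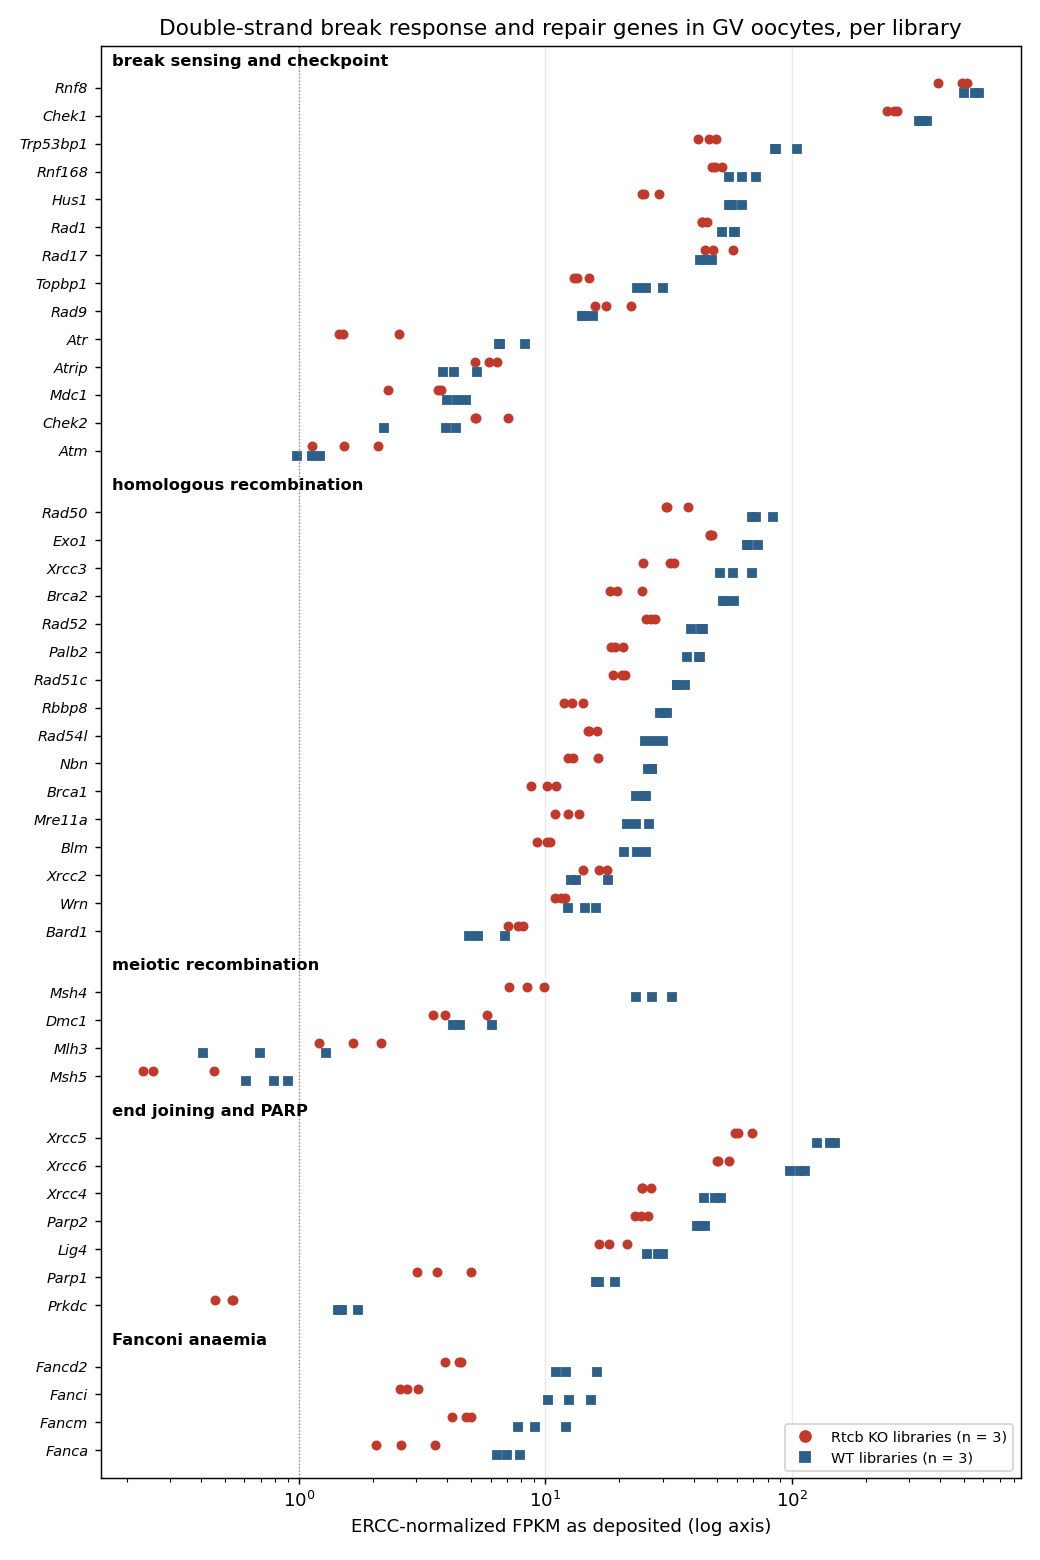
ERCC-normalized FPKM (log axis) of all 45 members in each Rtcb KO library (circles) and each WT library (squares), by role and ordered by WT mean; the dotted line marks 1 FPKM. Rnf8 and Chek1 lie highest, Msh5, Mlh3, Atm and Prkdc lie near or below 1 FPKM, and in all 4 Fanconi genes and all 7 end joining and PARP genes the KO circles lie below the WT squares.

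Counts of lower members by role were as follows. As deposited, 7 of 14 sensing and checkpoint genes, 13 of 16 homologous recombination genes, 1 of 3 tested meiotic genes, 7 of 7 end joining and PARP genes and 4 of 4 Fanconi genes were lower. With the factors removed these counts were 3, 6, 1, 5 and 3 for the same sets, and 6 sensing, 2 homologous recombination and 1 meiotic gene were higher. Of all tested genes 54.0% were lower as deposited, a larger share than among the sensing genes or the tested meiotic genes. With the factors removed 18.0% of all tested genes were lower and 25.7% higher. Relative to all tested genes, the median over all members of a role was −0.79 ± 0.11 for Fanconi genes, −0.43 ± 0.070 for end joining and PARP genes, −0.43 ± 0.11 for homologous recombination genes, 0.18 ± 0.13 for meiotic genes and 0.13 ± 0.068 for sensing and checkpoint genes (log2, SD over the 3 KO libraries). With the factors removed the same medians were −0.75, −0.41, −0.38, 0.024 and 0.18. These medians describe the members and were not tested against each other.

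**Figure D2:**
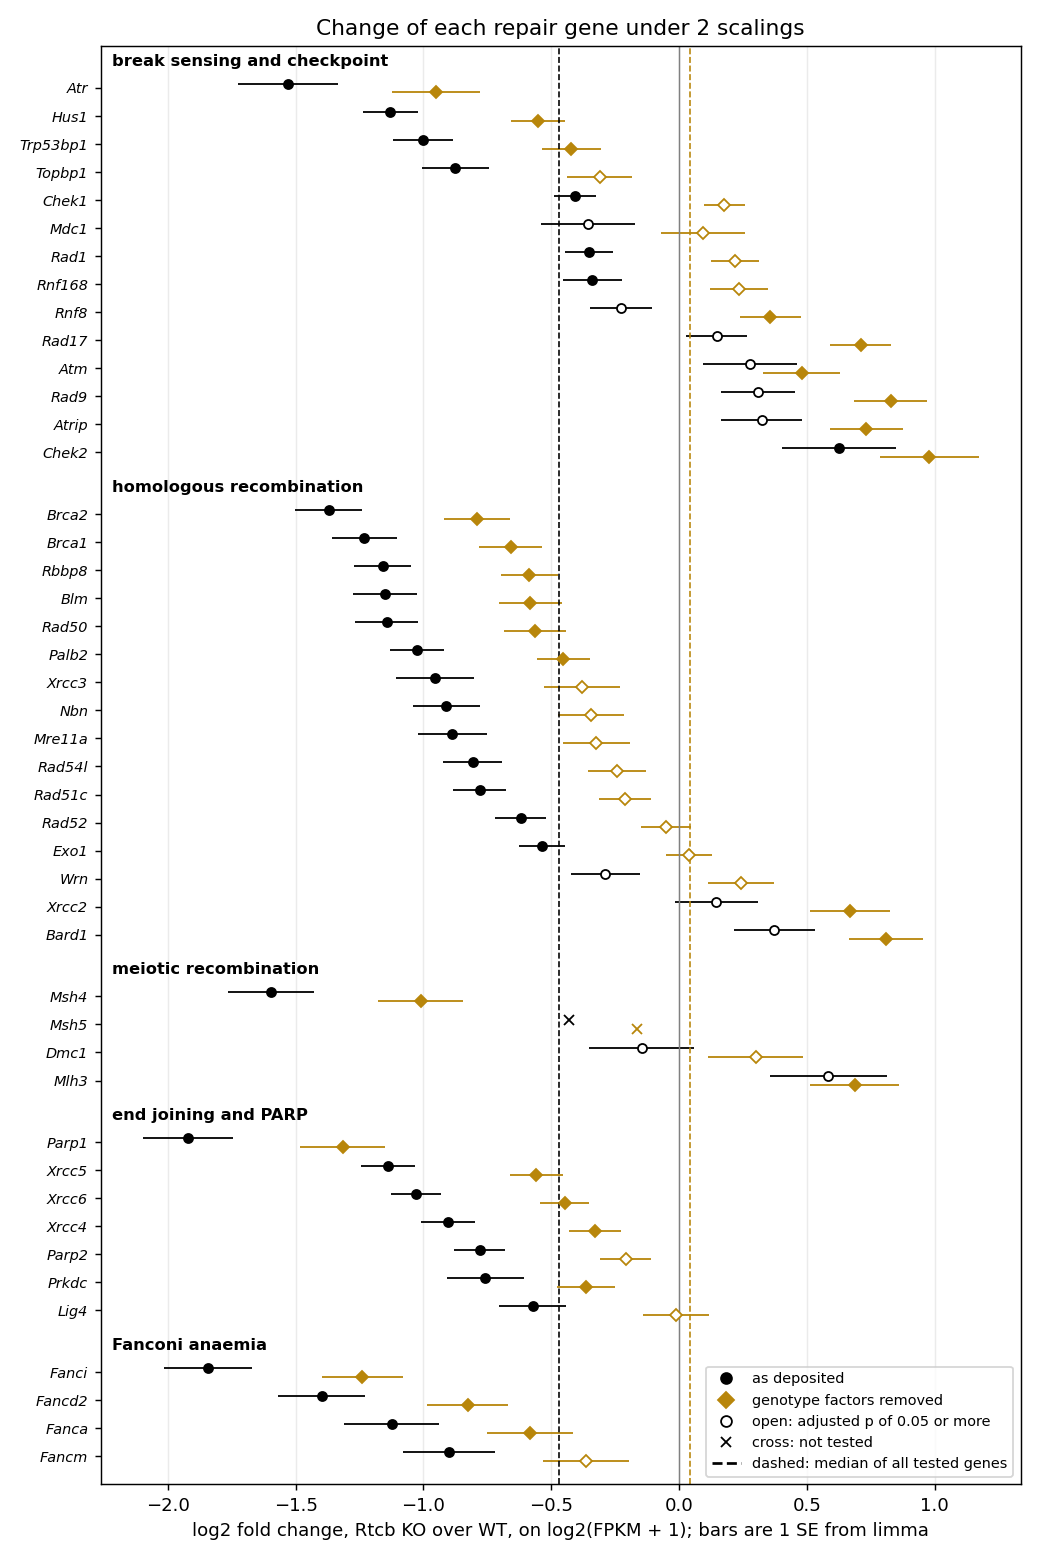
Log2 fold change of each member on log2(FPKM + 1), Rtcb KO over WT, as deposited (black circles) and with the genotype factors removed (gold diamonds), with 1 SE from limma; open symbols have an adjusted p of 0.05 or more, crosses were not tested, and dashed lines are the medians of all tested genes (−0.47 and 0.043). Parp1, Fanci, Msh4 and Atr lie farthest to the left in both, and Chek2 is filled on the right in both.

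Of the kinase genes that sense breaks, Atr was lower in Rtcb KO and Atm was low in both groups. Atr, the kinase activated on resected DNA, was at 1.45, 2.55 and 1.505 FPKM in the Rtcb KO libraries, against 6.50, 6.52 and 8.31 FPKM in the WT libraries. All KO values lay below all WT values, and the fold change was −1.53 (SE 0.19, limma adjusted p = 0.000392; −0.95 and adjusted p = 0.00427 with the factors removed). Its partner Atrip was at 5.90, 5.18 and 6.34 FPKM in Rtcb KO and 4.25, 5.27 and 3.84 FPKM in WT, where the groups overlapped (limma adjusted p = 0.106); with the factors removed Atrip was higher (0.73, adjusted p = 0.00549). Atrip shares 16.0% of its exonic bases with Trex1 on the same strand in the GENCODE annotation, so its values are uncertain. Atm, the kinase activated through MRN, was low in both groups, at 1.53, 1.13 and 2.09 FPKM in Rtcb KO and 0.984, 1.22 and 1.13 FPKM in WT, and was not called (limma adjusted p = 0.216). With the factors removed it was called higher (0.033), a call lost without any single library except KO 2 (adjusted p up to 0.0945, without KO 3).

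As deposited, the 2 checkpoint kinase genes were called in opposite directions. Chek1, whose product is the main target of ATR, was among the most abundant members at 261, 268 and 244 FPKM in Rtcb KO and 330.1, 341 and 354 FPKM in WT. It was lower as deposited (−0.41, limma adjusted p = 0.00306), and its sign turned with equal totals, median ratios and the factors removed (0.18, adjusted p = 0.109). Chek2, whose product is the main target of ATM, was at 7.07, 5.25 and 5.19 FPKM in Rtcb KO and 3.94, 4.33 and 2.22 FPKM in WT, with all KO values above all WT values. It was the single member called higher as deposited (0.63, SE 0.22, limma adjusted p = 0.0391; 0.98 and adjusted p = 0.00577 with the factors removed). As deposited this call was lost when any of the libraries KO 1, KO 2, KO 3, WT 1 or WT 3 was left out (adjusted p up to 0.126, without KO 1), while with the factors removed it held without each library.

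Of the genes of chromatin signalling at breaks, Trp53bp1 was lower under both scalings and the others were not. Rnf8, a ubiquitin ligase recruited to breaks, had the highest level of all members, 517, 394 and 495 FPKM in Rtcb KO and 575, 558 and 503 FPKM in WT; the groups overlapped and it was not called as deposited (limma adjusted p = 0.131). Its sign turned under the other 3 scalings, and its higher call with the factors removed (0.36, limma adjusted p = 0.0427) held when KO 2 was left out but not when any other library was (largest p 0.143, KO 1 left out). In the annotation it shares 13.2% of its exonic bases with a predicted gene on the same strand. Rnf168, the ligase that acts after RNF8, averaged 49.6 ± 2.36 FPKM in Rtcb KO and 63.2 ± 8.01 FPKM in WT (SD, n = 3 each). Its lower call (limma adjusted p = 0.0317) did not hold when any library but WT 1 was left out (largest p 0.116, WT 2 left out), and its sign turned with equal totals, median ratios and the factors removed. Mdc1, the scaffold that binds phosphorylated H2AX, was at 3.24 ± 0.808 FPKM in Rtcb KO and 4.37 ± 0.381 FPKM in WT and was not called (limma adjusted p = 0.121). Trp53bp1, which encodes a chromatin protein that restrains end resection, was at 41.8, 49.1 and 46.0 FPKM in Rtcb KO and 106, 86.8 and 85.4 FPKM in WT. It was lower under both scalings (−1.001, limma adjusted p = 0.000293; −0.42, adjusted p = 0.021 with the factors removed), a call lost with the factors removed without KO 1, KO 3 or WT 1 (up to 0.0753, without KO 1), and it shares 15.0% of its exonic bases with Tubgcp4 on the opposite strand.

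The checkpoint clamp is a ring of RAD9, RAD1 and HUS1 that RAD17 loads, and its genes were called differently. Hus1 was at 25.3, 29.0 and 24.8 FPKM in Rtcb KO and 57.5, 55.9 and 62.9 FPKM in WT, lower under both scalings (−1.13, limma adjusted p = 0.000174; −0.55, adjusted p = 0.00518 with the factors removed). Rad1 was at 43.3, 45.2 and 43.5 FPKM in Rtcb KO and 58.6, 58.9 and 52.1 FPKM in WT, lower as deposited (−0.35, limma adjusted p = 0.0125; 0.0517 without WT 2) with a sign that turned under the other 3 scalings. Rad9 (18.6 ± 3.26 FPKM in Rtcb KO, 14.7 ± 0.776 FPKM in WT) and Rad17 (50.03 ± 6.79 FPKM in Rtcb KO, 44.9 ± 2.60 FPKM in WT) were not called as deposited (limma adjusted p = 0.0953 and 0.308). Both were higher with the factors removed (0.83 and 0.71, limma adjusted p = 0.00342 and 0.0031). Topbp1, the activator of ATR that binds the clamp, was lower as deposited (13.9 ± 1.06 FPKM in Rtcb KO, 26.4 ± 3.25 FPKM in WT, limma adjusted p = 0.000727) but not with the factors removed (0.0802).

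In homologous recombination, the genes that mark and prepare the end were lower as deposited. Rad50, the ATPase of MRN, was at 30.9, 38.0 and 31.2 FPKM in Rtcb KO and 69.1, 71.5 and 84.0 FPKM in WT, with no overlap of the groups (−1.14, limma adjusted p = 0.000235; −0.56, adjusted p = 0.00854 with the factors removed). The other MRN genes were Mre11a, the nuclease (12.4 ± 1.41 FPKM in Rtcb KO, 23.7 ± 2.46 FPKM in WT), and Nbn (13.9 ± 2.13 FPKM in Rtcb KO, 26.8 ± 0.629 FPKM in WT). Both were lower as deposited (limma adjusted p = 0.00081 and 0.000638) and not called with the factors removed (0.0785 and 0.0605). Rbbp8, which encodes CtIP, the cofactor that starts resection with MRN, was at 14.3, 12.8 and 11.96 FPKM in Rtcb KO and 31.1, 30.4 and 29.1 FPKM in WT and was lower under both scalings (−1.16, limma adjusted p = 0.000183; −0.59, adjusted p = 0.00504 with the factors removed). Exo1, the nuclease of long-range resection, averaged 47.0 ± 0.398 FPKM in Rtcb KO and 68.6 ± 3.92 FPKM in WT; its fold change of −0.53 lay near the median of all tested genes, and it turned to 0.039 with the factors removed.

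Of the BRCA genes and their partners, Bard1 alone was not lower. Brca1, whose product forms a ubiquitin ligase with BARD1, was at 11.1, 10.1 and 8.72 FPKM in Rtcb KO and 25.1, 23.3 and 25.6 FPKM in WT (−1.23, SE 0.13, limma adjusted p = 0.000203; −0.66, adjusted p = 0.00487 with the factors removed). Bard1 was at 8.11, 7.05 and 7.72 FPKM in Rtcb KO and 4.90, 5.33 and 6.88 FPKM in WT, so that every KO value lay above every WT value. It was not called as deposited (0.37, limma adjusted p = 0.0678) and was higher with the factors removed (0.81, adjusted p = 0.00382). Palb2, the bridge between BRCA1 and BRCA2, was at 20.7, 19.2 and 18.6 FPKM in Rtcb KO and 42.4, 42.2 and 37.6 FPKM in WT (−1.03, limma adjusted p = 0.000208). Brca2, whose product acts on resected DNA, was at 19.5, 24.7 and 18.3 FPKM in Rtcb KO and 52.5, 54.5 and 58.2 FPKM in WT (−1.37, SE 0.13, limma adjusted p = 0.000175). Palb2 and Brca2 were also lower with the factors removed (−0.45 and −0.79, limma adjusted p = 0.0109 and 0.0029). All KO values of Brca1, Palb2 and Brca2 lay below all WT values under both scalings.

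Of the remaining homologous recombination genes described next, Blm alone was lower under both scalings. Blm, a helicase that dissolves recombination intermediates, was at 10.1, 10.5 and 9.27 FPKM in Rtcb KO and 23.5, 20.97 and 25.7 FPKM in WT (−1.15, limma adjusted p = 0.000237; −0.58, adjusted p = 0.00747 with the factors removed). The recombination mediator genes Rad51c (20.1 ± 1.23 FPKM in Rtcb KO, 35.3 ± 1.52 FPKM in WT) and Xrcc3 (30.2 ± 4.48 FPKM in Rtcb KO, 59.4 ± 8.81 FPKM in WT) were lower as deposited, at fold changes of −0.78 and −0.95. So were Rad52 (26.8 ± 1.09 FPKM in Rtcb KO, 41.8 ± 2.48 FPKM in WT), an annealing factor, and Rad54l (15.4 ± 0.750 FPKM in Rtcb KO, 27.7 ± 2.46 FPKM in WT), a motor protein of the strand exchange step. With the factors removed these 4 genes were not called, with limma adjusted p from 0.0722 for Xrcc3 to 0.703 for Rad52. Xrcc2, another mediator gene, was at 17.9, 14.3 and 16.6 FPKM in Rtcb KO and 18.0, 13.4 and 12.7 FPKM in WT, where the groups overlapped (limma adjusted p = 0.449); it was higher with the factors removed (0.67, adjusted p = 0.0112). Wrn, a helicase and nuclease, averaged 11.5 ± 0.541 FPKM in Rtcb KO and 14.3 ± 1.86 FPKM in WT and was not called under any of the 4 scalings (limma adjusted p = 0.0932 as deposited).

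Among the members, the meiotic recombination genes were low apart from Msh4. Msh4, which with MSH5 stabilises crossover intermediates, was at 8.44, 9.92 and 7.10 FPKM in Rtcb KO and 32.8, 23.3 and 27.1 FPKM in WT, a KO to WT ratio of means of 0.306 as deposited and 0.459 with the factors removed. The groups did not overlap, and the gene was lower under both scalings (−1.60, SE 0.17, limma adjusted p = 0.000221; −1.01, adjusted p = 0.00285 with the factors removed). Its partner Msh5 was at 0.255, 0.451 and 0.232 FPKM in Rtcb KO and 0.611, 0.789 and 0.903 FPKM in WT and was not tested. Dmc1, the meiotic recombinase, was at 5.79, 3.52 and 3.91 FPKM in Rtcb KO and 6.08, 4.51 and 4.24 FPKM in WT, with overlapping groups (limma adjusted p = 0.55). Mlh3, which takes part in resolving crossovers, was at 2.16, 1.202 and 1.66 FPKM in Rtcb KO and 1.29, 0.697 and 0.409 FPKM in WT. It was not called as deposited (0.58, limma adjusted p = 0.0547) and was higher with the factors removed (0.69, adjusted p = 0.0151; 0.0502 without WT 2).

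End joining genes were lower throughout as deposited. Xrcc5 and Xrcc6 encode the Ku heterodimer, which holds the broken ends. Xrcc5 was at 59.1, 69.3 and 60.5 FPKM in Rtcb KO and 143, 149.8 and 127 FPKM in WT (−1.14, limma adjusted p = 0.000172; −0.56, adjusted p = 0.00478 with the factors removed). Xrcc6 was at 55.6, 50.1 and 49.8 FPKM in Rtcb KO and 114, 108 and 98.7 FPKM in WT (−1.03, limma adjusted p = 0.000174; −0.45, adjusted p = 0.00818 with the factors removed). The ligase Lig4 (18.7 ± 2.53 FPKM in Rtcb KO, 28.2 ± 2.13 FPKM in WT) and its scaffold Xrcc4 (25.3 ± 1.24 FPKM in Rtcb KO, 48.3 ± 3.81 FPKM in WT) were lower as deposited (limma adjusted p = 0.00577 and 0.000287). With the factors removed Xrcc4 kept its call (limma adjusted p = 0.0339; above 0.05 when any library but WT 3 was left out, at most 0.127) and Lig4 did not (0.95). Prkdc, the kinase subunit that joins Ku, was at 0.455, 0.536 and 0.539 FPKM in Rtcb KO and 1.45, 1.49 and 1.74 FPKM in WT, close to the lower limit of the filter. It was lower under both scalings (limma adjusted p = 0.00295, and 0.0336 with the factors removed, where it exceeded 0.05 when any library but KO 2 was left out, at most 0.0885).

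Parp1 had the lowest log2 fold change of the 45 members, although the ratio of means was slightly lower for Fanci. PARP1 and PARP2 bind broken DNA and build poly(ADP-ribose) chains there. Parp1 was at 3.64, 5.004 and 3.02 FPKM in Rtcb KO and 19.2, 16.1 and 16.6 FPKM in WT, a KO to WT ratio of means of 0.225 as deposited and 0.337 with the factors removed. Its fold change was −1.92 (SE 0.18, limma adjusted p = 0.000171; −1.32, adjusted p = 0.00136 with the factors removed), and 0.599% of all tested genes had a lower fold change. Parp2 was at 24.4, 26.2 and 23.2 FPKM in Rtcb KO and 41.4, 42.6 and 44.7 FPKM in WT, lower as deposited (−0.78, limma adjusted p = 0.000413) and not called with the factors removed (0.122).

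The Fanconi anaemia genes were lower as a group of 4 as deposited. FANCI and FANCD2 form the clamp that is ubiquitinated at crosslinks, FANCA belongs to the ligase complex that does so, and FANCM anchors that complex to DNA. Fanci was at 2.73, 2.57 and 3.04 FPKM in Rtcb KO and 15.3, 12.5 and 10.2 FPKM in WT, a ratio of means of 0.219 (−1.84, SE 0.17, limma adjusted p = 0.000172; −1.24, adjusted p = 0.00139 with the factors removed). It shares 16.0% of its exonic bases with Polg on the opposite strand, and like overlaps were found for Rad54l with Lrrc41 (15.4%), Fanca with Zfp276 (10.5%), Rad9 with Ppp1ca (9.53%) and Xrcc6 with Desi1 (7.69%), so these values are uncertain too. Fancd2 was at 4.55, 4.45 and 3.90 FPKM in Rtcb KO and 16.2, 11.0 and 12.1 FPKM in WT, a ratio of means of 0.328 (−1.40, limma adjusted p = 0.000321; −0.83, adjusted p = 0.00523 with the factors removed). Fanca was at 3.58, 2.06 and 2.61 FPKM in Rtcb KO and 7.87, 7.01 and 6.35 FPKM in WT; its call with the factors removed (limma adjusted p = 0.025) did not hold when KO 2, KO 3, WT 1 or WT 2 was left out (largest p 0.0801, WT 1 left out). Fancm was at 4.17, 5.02 and 4.77 FPKM in Rtcb KO and 9.12, 7.72 and 12.2 FPKM in WT, lower as deposited (limma adjusted p = 0.00314) and not called with the factors removed (0.112). In each of the 4 genes every KO value lay below every WT value under both scalings.

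**Figure D3:**
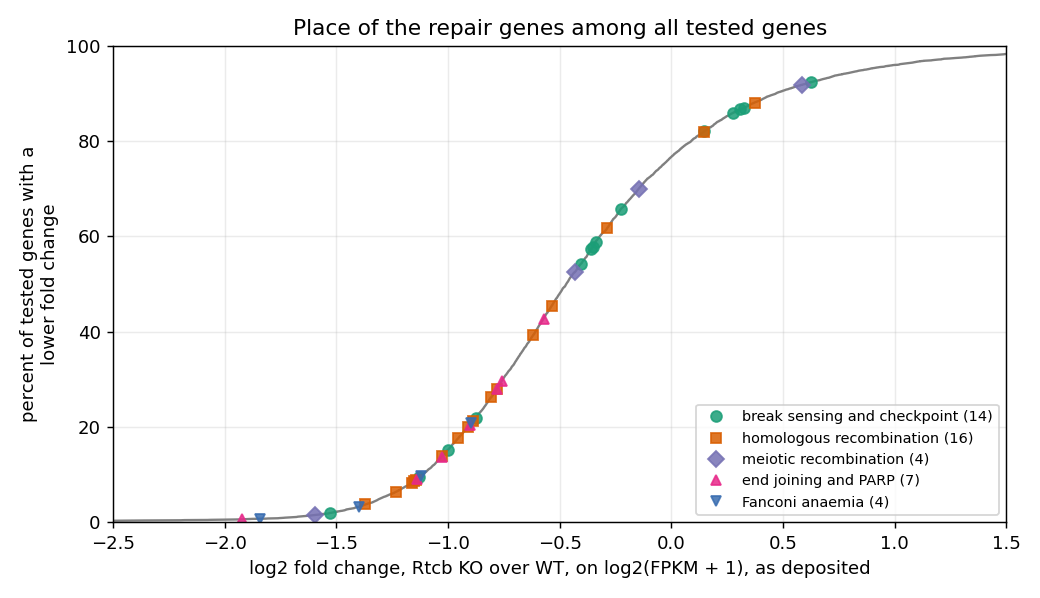
Percent of all tested genes with a lower fold change (vertical axis) against the log2 fold change as deposited (horizontal axis); the grey line is all 12029 tested genes and the symbols are the 45 members by role. All 4 Fanconi genes lie below the 25th percentile, and 5 of 14 sensing and checkpoint genes lie above the 75th percentile.

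Ratios of partner genes within a library do not depend on the scaling between libraries. Of 12 pairs listed, 11 were tested, and Msh4 to Msh5 was not because of the low level of Msh5. With 3 libraries against 3 an exact permutation test cannot give a p below 0.1, so these ratios cannot pass 0.05. The groups did not overlap in 6 pairs, each at the smallest possible p (exact permutation test, two-sided, p = 0.1, adjusted p = 0.183 over the 11 pairs). How often other pairs of genes separate in this way was not tested. Of single tested genes with the factors removed, 24.7% had all KO below all WT values and 31.7% all KO above.

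The ratio of Atr to Atrip was 0.246, 0.492 and 0.237 in the Rtcb KO libraries and 1.53, 1.24 and 2.16 in the WT libraries, a log2 difference of −2.38. Brca1 to Bard1 was 1.36, 1.44 and 1.13 in Rtcb KO and 5.13, 4.38 and 3.72 in WT (−1.75). In WT Brca1 was thus several times as abundant as Bard1, and in Rtcb KO the levels of both were close. Parp1 to Parp2 was 0.149, 0.191 and 0.131 in Rtcb KO and 0.463, 0.379 and 0.371 in WT (−1.38). Chek1 to Chek2 was 37.0, 51.0 and 46.9 in Rtcb KO and 83.7, 78.8 and 159 in WT (−1.19). Chek1 remained far above Chek2 in all 6 libraries. Hus1 to Rad1 averaged 0.598 ± 0.0382 in Rtcb KO and 1.05 ± 0.140 in WT, and Fancd2 to Fanci, the single pair with the higher ratio in Rtcb KO, averaged 1.56 ± 0.242 in Rtcb KO and 1.04 ± 0.153 in WT (SD, n = 3 each). The groups overlapped for Xrcc5 to Xrcc6 (1.22 ± 0.161 in Rtcb KO, 1.31 ± 0.0700 in WT), Rad50 to Mre11a, Rad50 to Nbn, Xrcc4 to Lig4 and Rnf8 to Rnf168, with log2 differences from −0.33 to 0.12 and exact permutation p from 0.2 to 0.5.

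**Figure D4:**
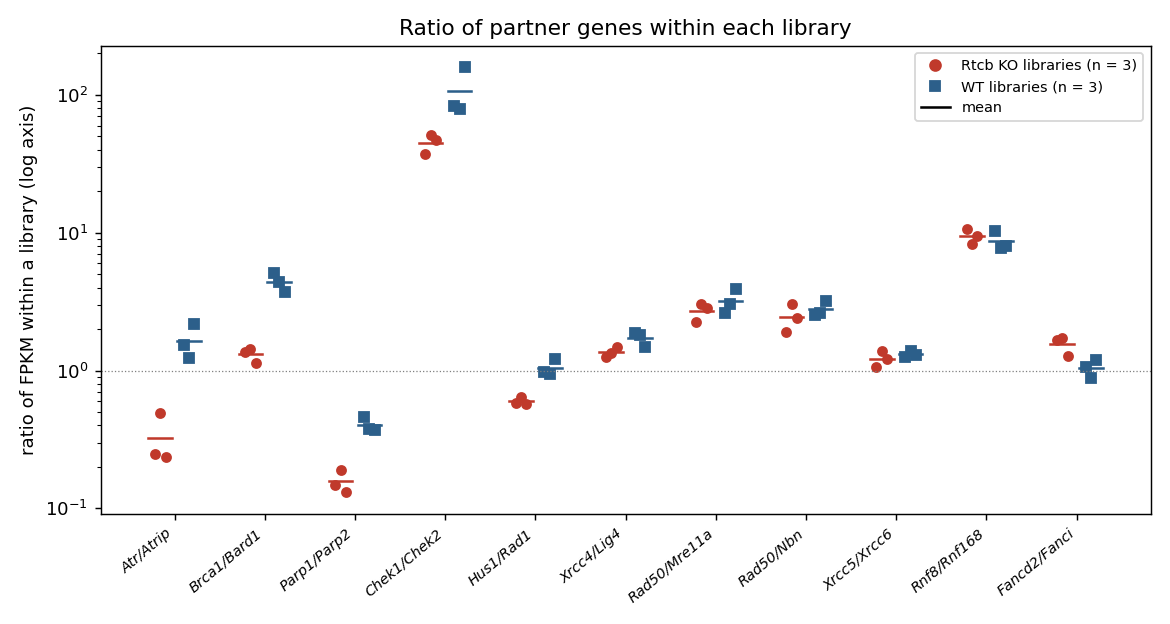
Ratio of FPKM of partner genes within each library (log axis) for 11 pairs, with Rtcb KO libraries (circles) left of WT libraries (squares); short lines are means of 3 libraries and the dotted line marks a ratio of 1. Atr/Atrip and Brca1/Bard1 show the widest gaps, and the ratios among the Ku genes and among the MRN genes overlap between the genotypes.

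The promoters of both pairs with the widest gaps are shown because their genes moved apart. Each is the 250 bases before the start in RefSeq on build GRCm38.p6, 5′ to 3′ on the strand of the gene. Capitals mark matches on either strand to 6 motifs: E2F (TTTGGCGC or TTTCCCGC), the CCAAT box (CCAAT), CHR (TTTGAA), ETS (CCGGAAG), the GC box (GGGCGG) and the NRF1 motif. No marked match overlaps another.
Brca1, minus strand, chr11:101551956-101552205: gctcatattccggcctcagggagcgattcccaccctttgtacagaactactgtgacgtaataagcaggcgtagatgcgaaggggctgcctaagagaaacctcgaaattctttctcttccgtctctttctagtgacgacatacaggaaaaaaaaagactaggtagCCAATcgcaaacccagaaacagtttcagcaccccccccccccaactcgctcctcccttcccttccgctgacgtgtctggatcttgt
Bard1, minus strand, chr1:71102973-71103222: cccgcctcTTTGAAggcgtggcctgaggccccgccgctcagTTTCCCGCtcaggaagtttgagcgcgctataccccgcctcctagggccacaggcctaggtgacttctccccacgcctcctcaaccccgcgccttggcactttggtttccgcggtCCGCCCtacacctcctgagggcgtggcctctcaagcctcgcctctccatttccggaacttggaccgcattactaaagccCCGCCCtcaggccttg
Atr, plus strand, chr9:95857347-95857596: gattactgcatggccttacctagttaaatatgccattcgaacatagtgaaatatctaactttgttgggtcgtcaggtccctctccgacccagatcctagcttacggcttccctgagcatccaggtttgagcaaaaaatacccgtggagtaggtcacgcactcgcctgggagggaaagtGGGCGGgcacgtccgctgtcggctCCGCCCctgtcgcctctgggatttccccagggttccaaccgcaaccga
Atrip, minus strand, chr9:109074125-109074374: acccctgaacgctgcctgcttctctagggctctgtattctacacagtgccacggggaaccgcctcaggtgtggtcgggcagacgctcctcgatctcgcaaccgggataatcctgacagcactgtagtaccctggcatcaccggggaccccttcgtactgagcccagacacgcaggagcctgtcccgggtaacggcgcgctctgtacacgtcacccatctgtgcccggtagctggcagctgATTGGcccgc
Within these windows Bard1 held an E2F match at 209 bases, a CHR match at 242 bases and GC boxes at 95 and 16 bases before the start, while Brca1 held a CCAAT box at 86 bases. Atr held GC boxes at 72 and 48 bases and Atrip a CCAAT box at 10 bases before the start. Of 36 members with a promoter in the table, 6 held an E2F match (16.7%), namely Chek2, Mdc1, Brca2, Bard1, Msh5 and Xrcc6, against 2.63% of 8495 tested genes and 1.35% of all 27025 promoters. Those 6 members include genes called lower and higher. The GC box was found in 66.7% of members and 56.8% of tested genes (32.9% of all promoters), the CCAAT box in 41.7% and 37.4% (34.5%), ETS in 16.7% and 14.1% (7.05%), CHR in 11.1% and 11.0% (16.3%), and NRF1 in 11.1% and 8.77% (3.86%). A match is a description of the letters, not a binding site.

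The members had longer transcripts with more exons, by their medians. Their longest annotated transcripts had a median of 15 exons and 4571 bases, against 7 exons and 3133.5 bases for the tested genes with an annotation. Across the 45 members, which are not independent replicates, Spearman's rho between fold change and exon number was −0.46, against −0.28 across 11856 tested genes. It was −0.16 for transcript length in both sets, and −0.26 for WT level, against −0.30 over all tested genes; WT level also enters the fold change.

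Other genes of the same pathways, from a second list of 139 genes with 126 in the table and 117 tested, had a median nearer to that of all tested genes than the members had. Of these 78 were lower (66.7%) and 7 higher (5.98%) as deposited, against 54.0% and 9.29% of all tested genes. With the factors removed 23 were lower (19.7%) and 18 higher (15.4%), against 18.0% and 25.7% of all tested genes. The median fold change of this list was −0.58, which is −0.11 relative to all tested genes, and −0.079 relative to all tested genes with the factors removed. Relative to all tested genes, the median of Fanconi genes in this list was −0.0053, against −0.79 for the members. End joining genes were at 0.15, against −0.43, and sensing genes at −0.20, against 0.13. Homologous recombination and meiotic genes were at −0.19 and −0.15, against −0.43 and 0.18. With the factors removed the medians of this list were, in that order, 0.042, 0.14, −0.14, −0.15 and −0.086. The role order of the members was thus not repeated in this list. By role, 23 of 29 sensing, 26 of 37 homologous recombination, 12 of 20 meiotic, 7 of 15 end joining and 10 of 16 Fanconi genes of this list were lower as deposited, and 7, 8, 3, 3 and 2 of them with the factors removed. The shares as deposited were 79.3%, 70.3%, 60.0%, 46.7% and 62.5%, against 54.0% of all tested genes. With the factors removed they were 24.1%, 21.6%, 15.0%, 20.0% and 12.5%, against 18.0% of all tested genes. Named below are the called genes of smallest limma p in each role, which are not always those with the largest changes.

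On log2(FPKM + 1) the largest rises in this list were of Sycp3 and Hormad1, genes of the meiotic chromosome axis. By ratio of means the order was Wrap53 (5.95), Hormad1 (4.52), Fancf (3.86) and Sycp3 (2.85), with Wrap53 and Fancf under 1 FPKM in every WT library. Sycp3, a lateral element protein of the synaptonemal complex, was at 107, 82.1 and 116 FPKM in Rtcb KO and 30.4, 43.0 and 33.6 FPKM in WT (1.49, limma adjusted p = 0.000271; 2.04, adjusted p = 0.000675 with the factors removed). Hormad1, an axis protein of early prophase, was at 5.79, 2.79 and 7.64 FPKM in Rtcb KO and 1.16, 0.696 and 1.74 FPKM in WT (1.49, limma adjusted p = 0.00423). Sycp2, the partner of SYCP3 on the axis, was lower instead, at 6.73, 10.9 and 5.87 FPKM in Rtcb KO and 22.2, 25.4 and 30.7 FPKM in WT (−1.65, limma adjusted p = 0.000496; −1.06, adjusted p = 0.00661 with the factors removed). Hsf2bp and Pms2 were the other named falls, with ratios of means of 0.514 and 0.576.

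In homologous recombination the named falls were Top3b (0.345 as KO to WT ratio of means), the helicase gene Helq (0.387), Rad51b, listed as Rad51l1 (0.320), and the nuclease gene Mus81 (0.506). Rad51ap1 was higher, at 33.0 ± 6.82 FPKM in Rtcb KO and 20.3 ± 1.87 FPKM in WT (limma adjusted p = 0.00782). In sensing and checkpoint, Rfc5 was lower (29.4 ± 2.30 FPKM in Rtcb KO, 72.7 ± 8.83 FPKM in WT) and Rfc4 higher (55.1 ± 10.3 FPKM in Rtcb KO, 37.5 ± 2.73 FPKM in WT), and both encode subunits of clamp loaders (limma adjusted p = 0.000174 and 0.0127). Ddb1, Etaa1, an activator of ATR, and Timeless were lower (ratios 0.437, 0.495 and 0.589), and Wrap53 was higher at 2.19, 0.898 and 2.98 FPKM in Rtcb KO and 0.476, 0.307 and 0.237 FPKM in WT. In end joining, the DNA ligase genes Lig1 and Lig3 and the end-cleaning genes Tdp1 and Tdp2 were lower (ratios 0.335, 0.480, 0.445 and 0.618), and Dclre1c, which encodes the Artemis nuclease, was higher (76.6 ± 7.83 FPKM in Rtcb KO, 53.5 ± 8.97 FPKM in WT, limma adjusted p = 0.0122; the call was lost without KO 3). For the Fanconi pathway Dclre1a, Fancc, Wdr48 and Fancl were lower (ratios 0.484, 0.538, 0.431 and 0.566), and Fancf was higher at 2.02, 0.614 and 2.26 FPKM in Rtcb KO and 0.475, 0.613 and 0.18 FPKM in WT (limma adjusted p = 0.0336; the call was lost without each library but KO 2). Wrap53 and Fancf passed the filter by their KO level. With the factors removed Timeless, Pms2, Tdp2, Fancc and Fancl were not called, and the other genes named from this list kept their call and direction.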

How the data were processed

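Polyadenylated RNA of 10 pooled oocytes per library was amplified by Smart-seq2 with ERCC spike-ins and read as 150-base pairs, per the labels' protocols. Reads were processed with TopHat2 2.1.1 and Cufflinks 2.2.1 against mm9, per the submitters' processing notes, and the authors deposited FPKM per gene normalized to ERCC. The sources used here do not say whether counting used strand, so overlapping genes are uncertain. Raw read counts were not used here and depth is unknown, so no counting error can be given.

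The filter kept the 12029 genes that averaged 1 FPKM or more. The test was limma 3.58.1 in R 4.3.3 on log2 values with a pseudocount of 1, a variance trend and Benjamini-Hochberg adjustment over all genes kept, after the code was tested on simulated data. In each library 2000 random values of at least 1 FPKM were checked. To a tolerance of 0.01 in the last digit, each was a 6-digit number times a factor common to its genotype. The alternative with factors removed divides all values by these factors, whose ratio, KO over WT, is −0.585 on the log2 scale. The pseudocount stayed at 1, so fold changes of low genes moved by less than that ratio. Atm, for example, was at 0.28 as deposited and 0.48 with the factors removed. Fold changes and calls of low genes are therefore less comparable between these scalings. Ratios of partner genes were tested by an exact two-sided permutation test. Alternatives changed the pseudocount, filter, scaling, variance trend and replicate block, and left out each library.

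The members and the lists were chosen with earlier results of these data known. All 45 members are described; from the second list, up to 4 genes lower and up to 4 genes higher were named per role, apart from an item that is not reported here. Gene overlaps, exon numbers and transcript lengths are from GENCODE vM21, used as gene properties, and promoters are from RefSeq on GRCm38.p6, with 36 of 45 members matched by symbol.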

Additional observations from a re-analysis of the deposited data

How the results depend on the processing

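With another pseudocount, without the variance trend or without single libraries (30 to 33), the count of 32 lower members moved little, and the pseudocount changed no member's call. Scaling mattered most: higher members numbered 7 with equal totals, 8 with median ratios and 9 with the factors removed, against 1 as deposited, and lower members 18 with the factors removed. Combining that scaling with each library left out, chosen after seeing the data, gave 14 (KO 3 or WT 1 left out), 15 (WT 2), 16 (KO 1 or KO 2) or 18 (WT 3) lower and 6 to 9 higher members. By limma, higher members numbered 0 without a filter (2 at an unadjusted p under 0.05), 0 with a mean of at least 10 FPKM (0 unadjusted), 3 without the trend, and 0 to 2 without single libraries (0 without KO 1, with 0 unadjusted, and 0 without KO 3, with 1 unadjusted). For the second list, equal totals, median ratios and factors removed gave 35, 32 and 23 lower genes (29.9%, 27.4% and 19.7%). They gave 12, 17 and 18 higher genes (10.3%, 14.5% and 15.4%), to be set against the shares of all tested genes above. Signs turned, in that order of scalings, for Chek1 (0.025, 0.11 and 0.18), Rnf8 (0.20, 0.29 and 0.36), Rnf168 (0.086, 0.17 and 0.23), Rad1 (0.072, 0.15 and 0.22), Wrn (0.11, 0.19 and 0.24) and Dmc1 (0.21, 0.27 and 0.30), for Mdc1 with median ratios (0.046) and factors removed (0.092), and for Exo1 with factors removed (0.039). Role medians relative to all genes moved as follows. For sensing genes the median was 0.0556 with pseudocount 5, −0.15 without a filter, 0.21 at 10 FPKM and 0.11 to 0.22 (without KO 2) without single libraries. For homologous recombination genes it was −0.71 without a filter, and for end joining genes −0.51 with pseudocount 0.1 and −0.71 without a filter. Fanconi genes gave −0.94 with pseudocount 0.1, −0.47 with pseudocount 5, −1.07 without a filter and from −0.89 to −0.67 without single libraries. Meiotic genes gave −0.11 with pseudocount 0.1, −0.094 without a filter, −1.04 at 10 FPKM (Msh4 alone), 0.028 with median ratios, 0.024 with factors removed and 0.11 (without KO 1) to 0.24 without single libraries. Without a filter every role median moved by the same amount, since only the median of all genes changed; the cause of the other moves was not tested. Whether replicate numbers pair the samples was not established. Same-numbered deviations correlated at 0.141, −0.0988 and 0.0379, within the range of differently numbered ones (−0.243 to 0.172). The replicate block gave 32 lower and 2 higher members. No partner ratio changed sign under its alternatives.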
